A study of Drosophila melanogaster with 4 samples.

Results

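LSD1 regions of intermediate width on the fly autosomes, each 4 to 10 kb long in the combined list and overlapped by both replicates, are described here. A region of the combined list was taken when it lay on 2L, 2R, 3L or 3R, was at least 4000 and less than 10000 bp wide, and shared at least 1 bp with an enriched region of replicate 1 and of replicate 2. This gave 1280 regions out of 11016 in the combined list, or 11.6%. They were thus selected on measured values, namely the called width of the combined region and the presence of calls in both replicates. The data come from LSD1 ChIP-seq with antibody Q3430 on chromatin from heads of adult flies of the strain Oregon-R, which is wild type; the labels give the stage as mixed adult. They comprise 2 ChIP samples and 2 input samples, the latter being chromatin sequenced without precipitation, and all 4 share strain, genotype and stage. Flies were raised in population cages and heads were separated with sieves. Separate collections for the replicates are not mentioned in the labels, and differences between them may be technical only. No mutant lacking LSD1 and no second antibody was among the samples, and a list of regions holds no marker by which the head tissue could be checked.

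LSD1 is a histone demethylase that removes methyl groups from histone H3 tails. In flies it is encoded by Su(var)3-3, a gene first known as a suppressor of position-effect variegation, in which a gene placed near heterochromatin is silenced in some cells and active in others. It works together with the corepressor CoREST and with histone deacetylases, and in mammals these complexes are known for keeping neuronal genes silent in cells that should not express them. Heads contain the brain and the eyes, and also fat body, muscle and cuticle, so chromatin from whole heads is a mixture of many cell types.

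Positions are those of release 5 of the fly genome, as the file headers state. The gene table at hand follows release 6, so gene, exon and promoter annotations were not used, and whether these regions match genes in extent was not examined. For the same reason the regions are given by position and without sequence. Each carries the authors' score, which is taken to be the log2 of ChIP over input and holds a constant that differs from list to list. Width, overlap and score all derive from the same ChIP and input libraries that chose the regions. The values below are therefore descriptions, and no test was applied to them.

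The regions covered 7.95 Mb, which was 8.23% of the 96.6 Mb of the 4 arms and 22.1% of the autosomal length in the combined list. Their widths ran from 4005 to 9989 bp with a median of 5861 bp, and 684 of them (53.4%) were narrower than 6 kb. Support by both replicates was common at this width. Of 1362 autosomal combined regions of 4 to 10 kb, 1280 (94.0%, 95% Wilson interval 92.6 to 95.1, which covers counting of regions only) were overlapped by both replicates, where the share was 45.5% over all autosomal regions of any width and 44.2% over the whole combined list. Because overlap is part of the rule and wider regions are overlapped more readily, nothing is read from this difference. The 82 regions left out were each listed by 1 replicate, 30 by replicate 1 alone and 52 by replicate 2 alone. Their median combined scores were 0.51 and 0.46, and those of the regions kept had a median of 0.62.

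Most of these regions scored below 1 in each list, and a few scored high. Folds given here are antilogs of the score and keep each list's own constant. The combined score ran from 0.33 to 1.62, with a median of 0.62 (1.54-fold). Replicate 1 gave a median of 0.72 (1.65-fold) and a range up to 1.78, and replicate 2 a median of 0.90 (1.87-fold) and a range up to 2.03, when each region was given the score of the replicate region that overlapped it longest. The combined score lay below both replicate scores at 908 regions (70.9%) and above both at 0. The share below both was 67.7% over all autosomal regions overlapped by both replicates. A replicate score refers to the called stretch, which can differ from the combined region in extent. The constants of the lists also differ, so this order of the scores is not read as a difference in enrichment. At a score of 1 or more, or 2-fold on that scale, there were 94 regions (7.34%) by combined score, 149 (11.6%) by replicate 1 and 384 (30.0%) by replicate 2. Each list has its own constant, so these counts are not compared between lists. A score of 1 or more in all 3 lists was reached by 70 regions. They were spread over the arms, with 13 on 2L, 17 on 2R, 16 on 3L and 24 on 3R. Only 1 region reached 1.5 in both replicates, and that was 3L:17905046-17912426. The joint counts put the same cutoff on lists with different constants, so they describe the listed scores only. Matching shares over all autosomal regions are not given, so these counts are not read as a trait of this width class. The 75th percentile of the combined score was 0.74 here and 0.76 over all autosomal regions overlapped by both replicates.

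The 10 regions with the highest combined score included 4 on 2R, 3 on 3R, 2 on 3L and 1 on 2L. Replicate scores are given as listed, and each keeps the constant of its list. Which is higher, and how close they lie, is therefore not read as a difference or likeness in enrichment. An SD over the 2 replicates also holds the difference between the constants. The highest was 2L:2747468-2756002, 8535 bp wide, with a combined score of 1.62, 1.50 in replicate 1 and 2.03 in replicate 2 (1.77 ± 0.377, SD, n = 2). Replicate 1 listed 1 region of 8342 bp there and replicate 2 listed 1 region of 8707 bp, so the extent recurred although the scores lay apart. On 3L, the region at 17905046 to 17912426 (7381 bp) scored 1.59 combined, 1.63 in replicate 1 and 1.52 in replicate 2 (1.58 ± 0.0817, SD, n = 2). It was covered over 99.2% of its width by replicate 1 and 99.5% by replicate 2, each time by a single region. Its extent was thus close between the replicates. Its replicate 2 score minus its replicate 1 score was -0.12, where the median over the 1280 regions was 0.18.

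The highest on 3R was 3R:27043240-27052556 (9317 bp), with 1.48 combined, 1.36 in replicate 1 and 1.86 in replicate 2. As on 2L, replicate 2 had the higher score while both replicates covered more than 90% of the region. Of lower rank on this arm, 3R:14067112-14073746 (6635 bp) scored 1.33 combined, with 1.45 for replicate 1 and 1.17 for replicate 2, and 3R:21928928-21935456 (6529 bp) scored 1.32, 1.39 and 1.25 in the same order. Here replicate 1 had the higher score, and both replicates again listed a single region over nearly the whole width.

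On 2R the highest was 2R:1981118-1985188 (4071 bp), with 1.45 combined, 1.28 in replicate 1 and 1.64 in replicate 2. The region 2R:2548564-2552570, at 4007 bp the second narrowest of all, scored 1.41 combined. Its listed scores were 1.48 in replicate 1 and 1.49 in replicate 2. Close to the end of the assembled arm on the centromere side, 2R:975280-979482 (4203 bp) scored 1.39 combined, 1.59 in replicate 1 and 1.36 in replicate 2. It was isolated, with no other combined region for 257229 bp on one side and 29831 bp on the other. The fourth of this arm, 2R:5313440-5320880 (7441 bp), scored 1.38 combined, 1.35 in replicate 1 and 1.51 in replicate 2.

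The remaining member of the 10 was the least regular in extent. At 3L:504896-509078 (4183 bp), with 1.47 combined, replicate 1 had 1 region of 2791 bp at a score of 1.70. Replicate 2 had 2 regions there, one of 5221 bp at 1.50 that began outside the combined region and one of 1376 bp at 0.69. The strongest part was thus common to both replicates, and the right-hand part was listed by replicate 2 at a lower score. In 9 of the 10, each replicate had a single region.

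**Figure D1:**
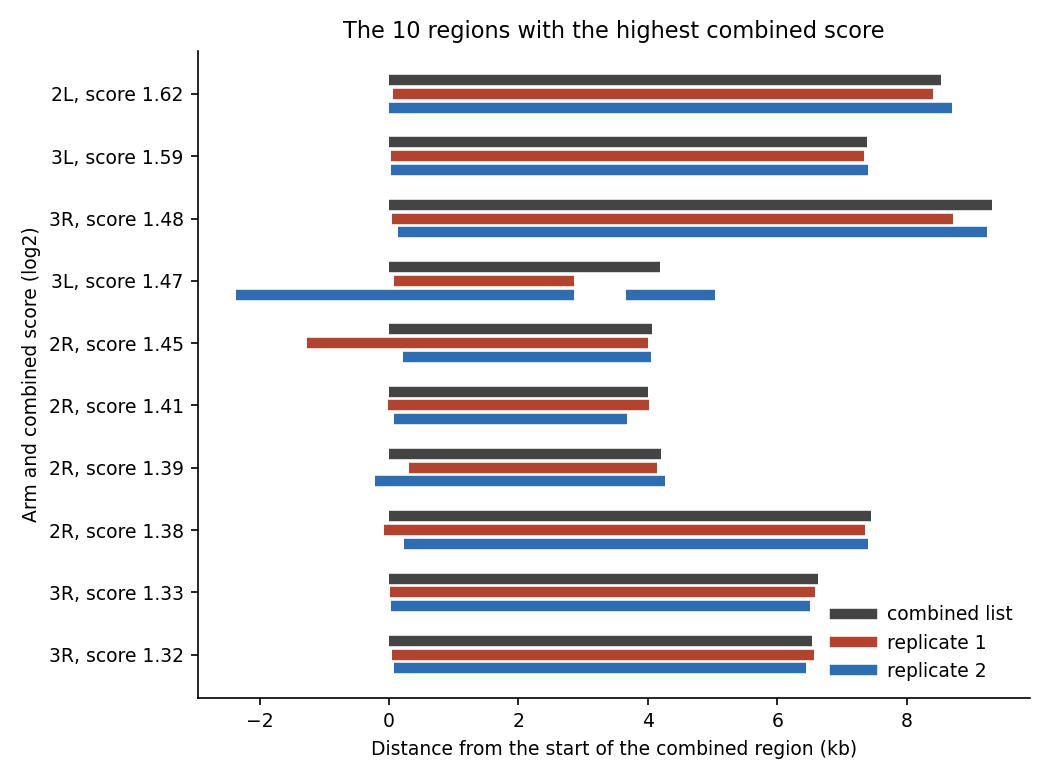
Extent of the 10 regions with the highest combined score, drawn as distance in kb from the start of the combined region, with the combined list, replicate 1 and replicate 2 as bars. Each replicate has a single bar in 9 of the 10, and the 3L region with a score of 1.47 has 2 regions in replicate 2. Lengths differ most among the 9 at the 2R region with a score of 1.45, where the replicate 1 bar (5264 bp) begins outside the combined region and the replicate 2 bar is 3832 bp long.

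Across all 1280 regions the replicates often listed several regions where the combined list had 1. Such regions are called divided here, although how the combined list was made is not known. A single region in each replicate was found at 563 regions (44.0%), where the share was 60.6% of all autosomal regions found in both replicates. It was 44.4% for X-linked regions of the same width. Replicate 1 had 1 region at 904 (70.6%) and 2 to 4 regions at 376 (29.4%), and replicate 2 had 1 region at 742 (58.0%) and 2 to 4 at 538 (42.0%). The share matched by 1 region was thus 64.3% ± 8.95 (SD, n = 2). Both replicates divided 197 regions, replicate 2 alone 341 and replicate 1 alone 179. The pieces lay close together, since the widest gap between them had a median of 614 bp in replicate 1 and 480 bp in replicate 2. For narrower autosomal regions found in both replicates the share with a single region in each was 91.1% of 1857, and for those of 10 to 20 kb it was 19.4% of 527, so the regions of 4 to 10 kb stood between them.

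Division was more frequent in the wider regions. From 4 to 5 kb, 62.7% of 365 regions had a single region in each replicate, and from 9 to 10 kb 23.1% of 104 did. Among the regions with the most pieces, 2R:9242480-9251870 (9391 bp) had a combined score of 0.53 with 2 regions in replicate 1 and 4 in replicate 2, the latter scoring from 0.62 to 1.04. Of the 3 widest regions, all 9989 bp wide, 3L:2722448-2732436 scored 0.59 combined and held as many pieces, with 4 regions of replicate 1 (0.52 to 0.84) and 2 of replicate 2 (0.71 and 0.96). The other two, 2R:2456852-2466840 and 3R:1754970-1764958, scored 0.54 and 0.72 combined and had 1 region in replicate 1 and 2 in replicate 2. None of these wide regions reached a score of 1 in the combined list.

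Replicate cover was high in the middle of the regions and low at their ends. Over the middle of the width, replicate 1 covered 82.0% of regions and replicate 2 covered 84.9%. At the outermost position examined on the left, 2.5% of the width from the start, they covered 39.5% and 46.6%, and at the matching position on the right 42.6% and 45.2%. Both replicate lists therefore tended to end inside the combined region. The outermost replicate edges lay inside the combined region at both ends, or on its edge, in 62.0% of regions for replicate 1 and 46.3% for replicate 2. Longest-overlapping replicate regions were narrower than 4 kb at 690 regions (53.9%) in replicate 1 and 660 (51.6%) in replicate 2. The width of 4 to 10 kb thus holds for the combined list.

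**Figure D2:**
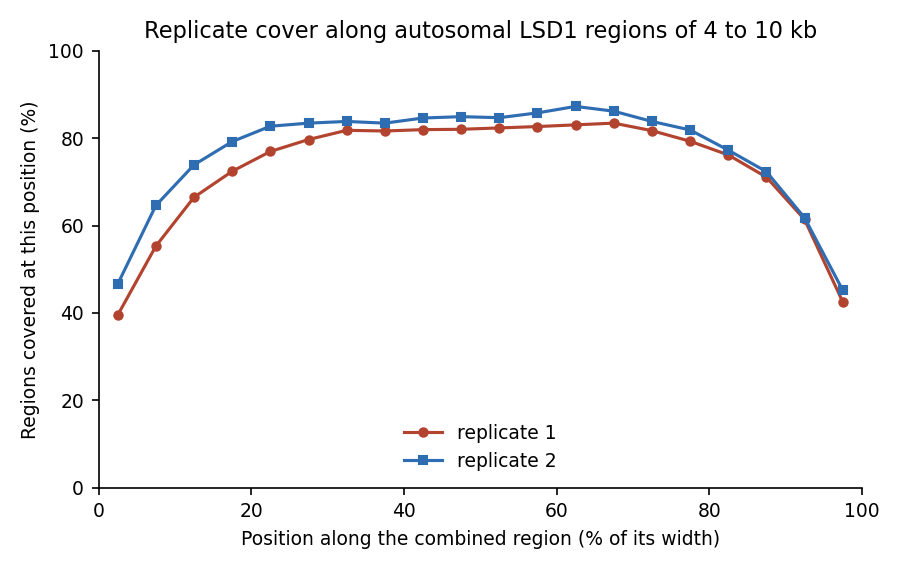
Share of the 1280 regions (%) that were covered by an enriched region of replicate 1 or replicate 2, at 20 evenly spaced positions along the width of the combined region. Cover was 82.0% and 84.9% near the middle and between 39.5% and 46.6% at the outermost positions.

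Summed over their length, 57.2% of the sequence in these regions was covered by both replicates, 16.3% by replicate 1 alone, 20.0% by replicate 2 alone and 6.47% by neither. The median share of a region covered was 77.7% in replicate 1 and 81.0% in replicate 2 (79.3% ± 2.33, SD, n = 2). In 252 regions (19.7%) at least 80% of the width was covered by both replicates at once, and these had a median combined score of 0.87. In 20 regions (1.56%) the replicates overlapped the combined region at different places and not each other. The lowest-scoring region of all was among them, at 2R:9808182-9813730 (0.33 combined), where replicate 1 listed 2 regions in the left and middle parts at 0.55 and 0.54, and replicate 2 a single region of 1470 bp at the right end at 0.56. Matching shares over all autosomal regions are not given for the counts of 252 and 20. Neither count is read as a trait of this width class.

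The next lowest combined scores belonged to regions that the replicates also overlapped at mostly different places. At 2L:4818630-4822702 (0.36 combined), replicate 1 scored 0.59 over 35.9% of the width and replicate 2 scored 0.95 over 67.3%. At 2L:6601726-6605918 (0.37 combined) they scored 0.50 over 35.9% and 0.93 over 67.1%. Sequence covered by both replicates at once made up 13.3% of the first and 5.68% of the second. The scores of the replicates at such regions thus refer largely to different stretches of sequence.

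When the 1280 regions were divided into 4 equal parts by combined score, the median share covered went from 51.1% in the lowest part to 92.5% in the highest in replicate 1, and from 70.0% to 91.6% in replicate 2. Single regions in both replicates went from 33.8% to 65.6%. High combined scores thus went with replicate regions of matching extent, and the low ones with partial and divided cover. The regions with a combined score of at least 1 had a median cover of 96.3% in replicate 1 and 93.2% in replicate 2. Combined score and replicate calls come from the same reads, so these values are not independent of each other.

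**Figure D3:**
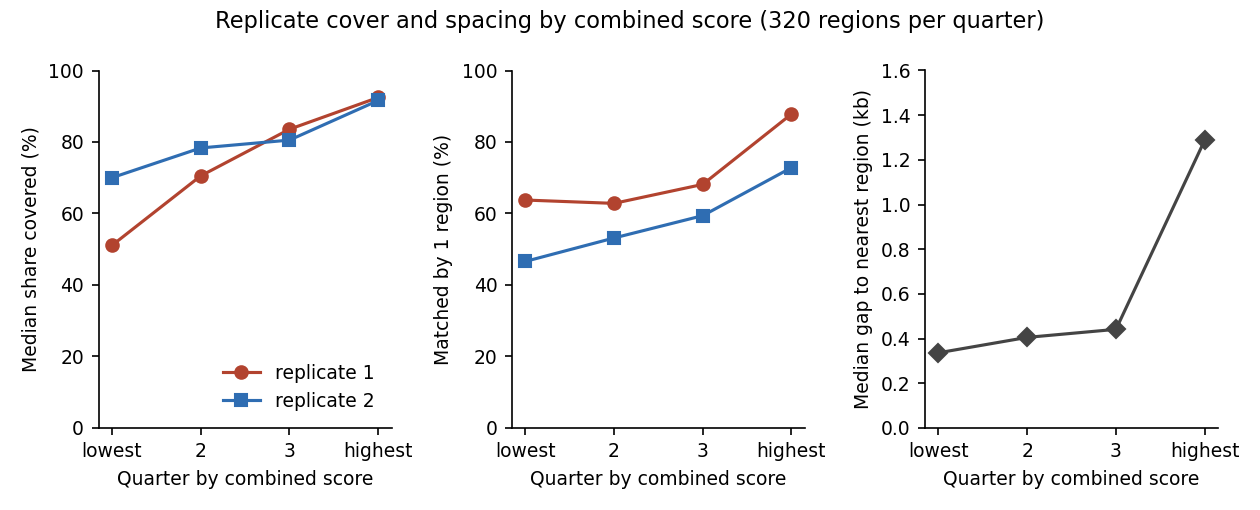
The regions in 4 equal parts of 320 by combined score, with the median share covered by each replicate (%, left), the share matched by 1 replicate region (%, middle) and the median gap to the nearest combined region (kb, right). In replicate 1 the covered share went from 51.1% to 92.5%, and the gap went from 336 bp to 1288 bp.

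Scores of the replicates were compared region by region. Replicate 2 had the higher score in 986 of 1280 regions (77.0%), where the share was 75.5% among autosomal regions of any width found in both replicates and 71.4% among all such regions, so the regions of 4 to 10 kb were near the background in this respect. The median difference, replicate 2 minus replicate 1, was 0.18 with an SD over regions of 0.24. Each list has its own constant, so a shift common to all regions cannot be read as a difference in occupancy. Across the 1280 regions Pearson's r between the replicate scores was 0.316 and Spearman's coefficient was 0.210, given as a description, since all points share the same pair of ChIP libraries and the pair of inputs. Over all autosomal regions found in both replicates they were higher, at 0.487 and 0.439. Below 4 kb they were 0.331 and 0.230, at 10 to 20 kb 0.390 and 0.353, and at 20 kb or more 0.534 and 0.420. The cause of these differences was not tested. Among the 1280 regions, a region of each replicate and the combined region covered each other over at least 50% at 569. For these 569 the coefficients were 0.471 and 0.413. Of the 320 regions in the upper 25% of replicate 1, 152 (47.5%) were in the upper 25% of replicate 2. Of the 320 in the lower 25% of replicate 1, 76 (23.8%) were in the lower 25% of replicate 2. Unrelated rankings would share about 25%, so the share in the lower part is not read as agreement. Matching shares over all autosomal regions are not given for these 2 counts, and neither is read as a trait of this width class.

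**Figure D4:**
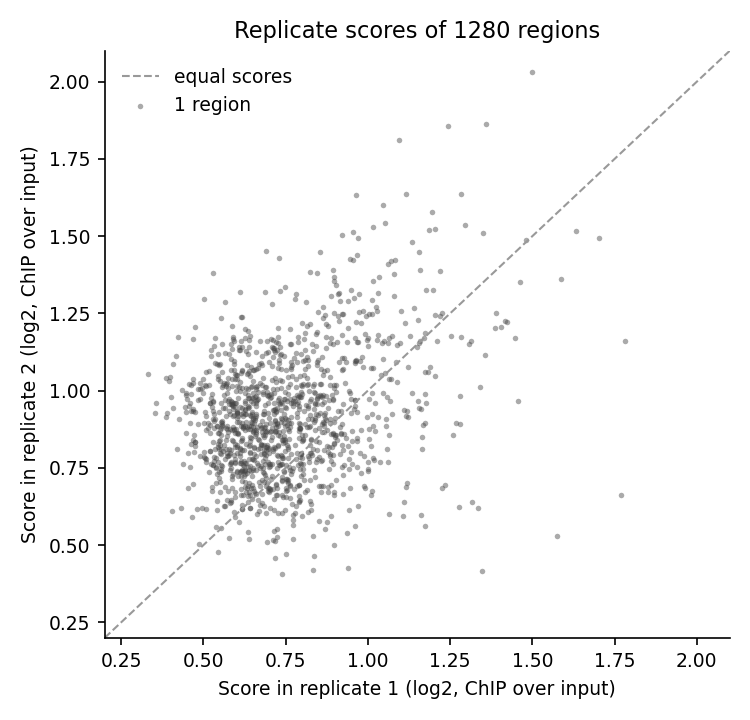
Score (log2) of each of the 1280 regions in replicate 1 and replicate 2, 1 point per region, with the line of equal scores. Most points lie above the line (986 of 1280), and a few lie far below it, the farthest at 1.77 in replicate 1 and 0.66 in replicate 2.

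A few regions departed far from the common shift. Replicate 1 was most above replicate 2 at 2R:1300030-1306422 (6393 bp, 1.22 combined), with 1.77 over a single region of 6372 bp, where replicate 2 had 2 short regions of 1641 and 1651 bp at 0.65 and 0.66. At 2R:7250752-7255736 (4985 bp, 1.01 combined) replicate 1 scored 1.57 and replicate 2 scored 0.53. At 3L:6783096-6787580 (4485 bp, 0.91 combined) replicate 1 scored 1.35, and the replicate 2 region of longest overlap scored 0.42. In all 3, replicate 1 covered more than 99% of the width and replicate 2 between 51.5% and 65.1%.

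In the opposite direction, 2R:6931284-6938564 (7281 bp, 0.70 combined) scored 1.38 in replicate 2 over 1 region of 5804 bp, and replicate 1 had 3 regions there, of which the one with the longest overlap scored 0.53. At 3R:26604696-26608792 (4097 bp, 0.60 combined) replicate 1 scored 0.50 and replicate 2 scored 1.30. At 3L:12396966-12404572 (7607 bp, 0.96 combined) they scored 0.69 and 1.45. The last differs from the others in that both replicates covered nearly all of it, with 93.6% in replicate 1 and 97.2% in replicate 2, so the scores there refer to the same sequence.

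Wider regions had higher scores. From 4 to 5 kb the median score was 0.59 combined, with 0.69 for replicate 1 and 0.87 for replicate 2, and from 9 to 10 kb it was 0.74, 0.84 and 0.99. Spearman's coefficient between width and score over the 1280 regions was 0.209 for the combined score, 0.191 for replicate 1 and 0.192 for replicate 2. Beyond the limits the trend went on. Narrower autosomal regions found in both replicates had a median of 0.50 in the combined list, and those of 10 to 20 kb 0.79. The difference between the regions of 4 to 10 kb and the narrower ones was 0.12 by combined score and 0.13 ± 0.00483 by replicate score (SD, n = 2).

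**Figure D5:**
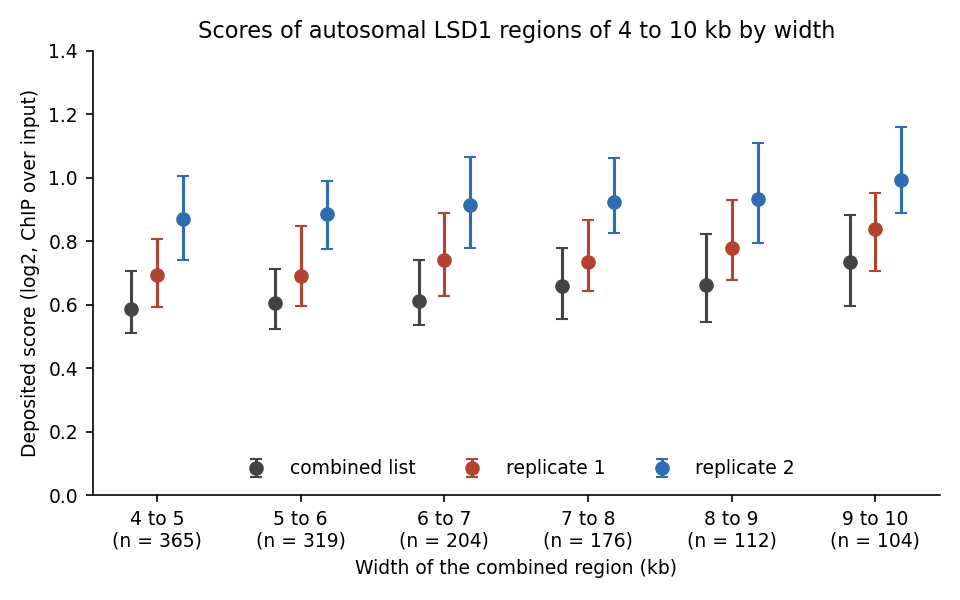
Median score (log2, points) with the 25th and 75th percentiles over regions (bars) in steps of 1 kb of width, for the combined list, replicate 1 and replicate 2. The medians from 4 to 5 kb were 0.59, 0.69 and 0.87, and from 9 to 10 kb they were 0.74, 0.84 and 0.99, with percentile ranges that overlapped between steps.

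Inside the lower limit lay 2R:17803954-17807958 (4005 bp), with a combined score of 0.48, and the already named 2R:2548564-2552570 (4007 bp, 1.41). Just outside lay 3L:6011770-6015762 (3993 bp, 0.47) and 2L:7832912-7836900 (3989 bp, 0.53). Above the upper limit, 3L:17653762-17663782 (10021 bp) scored 0.77 and 3R:3767510-3777536 (10027 bp) scored 0.92, where the widest regions inside scored 0.54, 0.59 and 0.72.

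The 4 arms held these regions at similar density. There were 314 on 2L, 304 on 2R, 314 on 3L and 348 on 3R, or 13.6, 14.4, 12.8 and 12.5 per Mb (13.3 ± 0.860, SD over 4 arms). Median combined scores were 0.61, 0.63, 0.62 and 0.62 in the same order. Replicate 2 had the higher score in 72.0% of regions on 3L and 80.9% on 2R, with the other two arms between them. Differences between arms were not tested, since the arms are 4 and the libraries 2 of each kind.

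On X, regions of the same width class found in both replicates numbered 338, or 15.1 per Mb, and had higher medians, at 0.77 combined, 0.95 for replicate 1 and 1.00 for replicate 2. Cover by the replicates was the reverse of that on the autosomes. X-linked regions were covered over a median of 85.2% by replicate 1 and 66.4% by replicate 2, and the autosomal ones over 77.7% and 81.0%. A score higher in replicate 2 was found at 55.6% of the X-linked regions. These differences between X and the autosomes were not tested.

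Like most autosomal combined regions, these regions seldom stood alone. Another combined region lay within 5 kb of 1156 of them (90.3%), where the share was 85.4% of all autosomal combined regions, and within 1 kb (1000 bp) of 799 (62.4%), against 51.4% of all. The median gap to the nearest combined region was 533 bp. On both sides, 699 regions (54.6%) had a neighbour within 5 kb, where the share was 46.6% of all autosomal combined regions. The nearest neighbour was narrower than 4 kb for 859 regions (67.1%), of 4 to 10 kb for 256 (20.0%) and of 10 kb or more for 165 (12.9%), where these classes made up 75.1%, 15.8% and 9.04% of all autosomal regions. A domain of 10 kb or more lay within 5 kb of 208 (16.3%), against 11.6% of all autosomal combined regions. Among autosomal regions found in both replicates this share was 9.42% below 4 kb, 22.8% at 10 to 20 kb and 27.9% at 20 kb or more. Any neighbour within 5 kb was found for 81.9%, 86.7% and 89.2% of them in the same order. For X-linked regions of 4 to 10 kb the 2 shares were 13.6% and 91.7%.

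Regions of high score were less closely flanked. In the lowest of the 4 parts by combined score the median gap was 336 bp and 94.7% had a neighbour within 5 kb, and in the highest part the gap was 1288 bp and the share 82.2%. Among the 94 regions with a combined score of at least 1, the median gap was 2102 bp and 7 (7.45%) lay within 5 kb of a domain of 10 kb or more, where 201 (16.9%) of the others did. These are values of 1 combined list and were not tested.

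Along the arms the regions were spread widely, with complete 1 Mb bins holding from 0 to 24 of them and a median of 13 over 95 bins. The incomplete last stretch of each arm was left out, and on 3R it holds 3R:27043240-27052556. The centromere-side 25% of the arms held 306 (23.9%), where the share was 22.3% of all autosomal combined regions, and the telomere-side 25% also held 306 (23.9%), where the share was 26.3% of all. The 3 bins with the fewest regions were the complete bins nearest the centromere ends of their arms. The bin from 23 to 24 Mb on 3L, 3L:23000001-24000000, had 0 regions of this width among 12 combined regions. On 2L the bin 2L:22000001-23000000 had 1 among 25, and the first bin of 2R had 2 among 26. The fullest bins were 2R:6000001-7000000 with 24 and 2R:5000001-6000000 and 3R:15000001-16000000 with 23 each. Bins with more combined regions of any width also had more of 4 to 10 kb (Spearman's coefficient 0.583 over 95 bins, as a description, since neighbouring bins and both counts share the libraries).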

How the data were processed

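Enriched regions of 2 LSD1 ChIP libraries and of their combined list were used as deposited. Per the submitters' processing notes reads were aligned with Bowtie 0.12.7, and per the file headers positions follow release 5. Not given in the sources used here are the caller, its threshold, the read depth and how the combined list was made. Single regions therefore carry no interval. The log2 score is the authors' value; no header names its scale. Antilogs to base 2, divided by a constant found for each list, came out as whole-number ratios (relative tolerance 1e-13, denominators up to 6000) in 11007 of 11016 combined regions, 8110 of 8115 in replicate 1 and 9911 of 9911 in replicate 2. Read as a natural log, 1, 19 and 5 regions gave such a ratio. The combined list's 3 depletion entries were left out.

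Overlaps, covered shares, gaps and medians were computed with Python 3.11.15, pandas 2.3.3 and scipy 1.17.1, and the overlap and ratio functions were tested on simulated regions. Each region took the score of the replicate region with the longest overlap. Named regions are the 10 highest combined scores and the highest on each arm, the 3 widest, the 3 lowest, the 3 largest differences between replicates in each direction, one with most pieces (ties by arm and start) and those next to the width limits. The fullest and emptiest bins, the region at 1.5 in both replicates and the runs in the closing observations were chosen after their values were seen. The width class, the lists and these rules were chosen with earlier results of these data known. Alternatives are given in the closing section.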

Additional observations from a re-analysis of the deposited data

How the results depend on the processing

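Of 56 alternatives, 32 kept the value within its spread (for the number of regions, within 1.5 times), 23 moved it and 1 turned its sign. Counting 50% cover by each replicate left 923 regions, reciprocal overlap of 50% left 569, and widths of 5 to 8 kb left 699, by construction stricter rules. The share of autosomal regions of 4 to 10 kb supported by both replicates was 67.8% with 50% cover, 41.8% with reciprocal overlap, 96.5% in the upper 50% by score and 96.1% at 5 to 8 kb. In the same order the difference in median score from narrower regions was 0.15, 0.21, 0.057 and 0.10, and it was −0.17 against regions of 10 to 20 kb, which score higher. The median covered share was 84.1%, 88.0% and 82.0% under the first 3 of these. Reciprocal overlap gave 79.3% of regions scoring higher in replicate 2, 79.8% matched by 1 region, and 86.1% with a neighbour within 5 kb. Neighbours within 2 kb and 10 kb were found for 75.9% and 97.3%, and the centromere-side 10% of the arms held 5.94%. Where no construction shows it, the cause was not tested. Requiring a single replicate gave 1310 to 1332 regions, a supported share of 96.2% to 97.8%, a score difference of 0.15 to 0.16, 58.7% to 71.0% matched by 1 region, a covered share of 77.8% to 81.2%, 90.5% to 90.6% with a neighbour within 5 kb and 23.7% to 23.8% on the centromere side. Leaving out an arm, or pairing by highest or mean score, kept the share higher in replicate 2 within its interval. No paired analysis was possible because no result comes from a test; differences within each replicate are given as values. Unknown depth leaves counting error in single scores unmeasured.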

Other observations

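In places on all 4 arms, regions of 4 to 10 kb lay in runs of 7 or 8 within 100 kb. The fullest stretch of 100 kb was 3R:15315940-15415154, where 8 of them made up 48.6% of 99.2 kb, with combined scores from 0.45 to 0.60 and a median replicate score of 0.63 for replicate 1 and 0.82 for replicate 2. A denser run of 7 lay at 2L:13565064-13632956, where they made up 61.1% of 67.9 kb with combined scores from 0.50 to 0.74. A run of 7 at 2R:6542130-6624714 (82.6 kb) scored 0.50 to 0.83, and one of 7 at 3L:21164060-21255102 (91.0 kb) scored 0.47 to 0.88. Combined regions of any width in these runs numbered 22 on 3R, 10 on 2L, 10 on 2R and 13 on 3L. The runs were picked for their fullness after their values were seen. Whether they exceed what the local density of combined regions gives was not tested. None of these runs held a region with a combined score of 1 or more. Such scores were found at 7.34% of all regions of this width, so nothing is read from their absence.

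Consecutive regions of this width on an arm were compared in score. For 335 pairs less than 10 kb apart, Spearman's coefficient between their combined scores was 0.194, for 402 pairs 10 to 50 kb apart 0.123, and for 539 pairs farther apart −0.012. The median difference within a pair was 0.10, 0.14 and 0.17 in the same order. By replicate score the close pairs gave 0.160 in replicate 1 and 0.109 in replicate 2, those 10 to 50 kb apart −0.037 and 0.091, and those farther apart −0.039 and −0.027. Without the 15 close pairs that shared a replicate region, 320 pairs gave 0.191 by combined score, 0.134 by replicate 1 and 0.080 by replicate 2. These coefficients are weak, all points share the libraries, and they are given as a description.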
